A study of Mus musculus with 2 samples.

Results

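Cytosolic ribosomal protein genes encode the protein part of the ribosome that translates nuclear messages, as distinct from the ribosome of mitochondria. The members were taken by symbol: Rps or Rpl followed by a number, with an optional a, x, y or l, together with Rplp0, Rplp1, Rplp2 and Rpsa. This rule uses no measured value and found 83 of the 31253 genes in the files, of which 32 were small-subunit symbols (Rps, Rpsa) and 51 large-subunit symbols (Rpl, Rplp). The profiles came from live CD45+ cells (leukocytes) sorted from mouse livers enriched for metastases of B16F10, a mouse melanoma line, and were made with the 10x Genomics 5′ single-cell chemistry. Each genotype, WT and Vsig4-/- (called Vsig4 KO here), gave 1 library, and both groups carried the tumour. VSIG4 is a complement receptor of resident macrophages such as the Kupffer cells of the liver, and by its title the study asks how these cells set the responses of T cells. The labels give neither the age of the mice nor the number pooled per library.

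Ribosomal proteins are assembled with ribosomal RNA in the nucleolus, in a process called ribosome biogenesis, into a small subunit that reads the message and a large subunit that joins amino acids. Their messages are among the most abundant in lymphocytes and begin with a 5′ terminal oligopyrimidine (TOP) tract, a C followed by a run of C and T, through which the kinase mTOR and the protein LARP1 set their translation and stability. Resting naive T cells are known to store ribosomal protein messages that they use when activated.

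Cells were placed in 7 types by raw marker UMIs, where a UMI (unique molecular identifier) counts 1 captured RNA molecule. These gates were naive-like T, effector T, B, NK, conventional dendritic cell (DC), monocyte and macrophage, and an 8th gate held plasmacytoid dendritic cells (pDC). A cell had to pass exactly 1 gate, and no gate used a ribosomal protein gene. Of 6872 WT and 5746 Vsig4 KO cells, 56.1% and 61.3% fell in the 7 gates, while 2702 and 2012 cells passed no gate. Separate markers were highest in their own gate in both libraries for naive-like T, B, NK, pDC, monocyte and macrophage. Markers listed for effector T cells had a higher sum in monocytes, and those listed for DC had sums of 2455 CPM (counts scaled to 1000000 UMIs of a gate) in the DC and 2497 CPM in the pDC gate of WT. Median depth was 3073 UMIs per cell in WT and 3306 in Vsig4 KO, 54 barcodes occurred in both libraries, and Vsig4 itself gave 43 UMIs in 19 WT cells and 3 UMIs in 3 Vsig4 KO cells. With 1 library per genotype there is no test and no p-value, every ratio is Vsig4 KO over WT, and 95% intervals are exact and cover counting error only. The gates share the same pair of libraries, so they are not replicates of the genotype.

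The bases around the annotated start were searched for the TOP tract. Fewer than 1 in 2 windows had one that began within 5 bases of that start. Of the 83 members, 63 were matched to RefSeq start sites of GRCm38.p6 (the mm10 build of the files), which gave 75 windows of 30 bases from 10 bases before the annotated start, read on the strand of the gene. The motif searched was a C followed by at least 4 bases that were each C or T, beginning within 5 bases of the annotated start, on the gene's strand only. It was found in 31 of the 75 member windows (41.3%), against 18.3% of the 32851 windows of all promoters in the table. A motif that began at the annotated start itself was found in 17.3% of member windows and 2.51% of all windows. A match is a description of letters and was not tied to translation here. The windows below belong to the members that stood apart between the libraries (Rps10, Rpl13a, Rpl38, Rplp0) or between cell types (Rpl12, Rps27, Rps27l), and to Rps24, among the most counted members. Of these 8 members 7 had the tract within 5 bases of the annotated start, a higher share than in the family. The other windows of Rps24 and Rps27l, not shown, lacked it there. Among the 29 members with a window that were picked for their deviation, range or paralogs, 17 lacked it at those positions in every window. Rps12, Rps19, Rps28, Rpl6 and Rpl10 were among them. A tract further from the annotated start was not counted, and the window of Rps12 held one there. The result thus depends on where the start is annotated. Capitals mark a tract that began within 5 bases of the annotated start. Rplp0 lacked one there, though letters that match the motif lay further along its window.
Rps10, chr17:27635225-27635254, minus strand: gcgcacgCCCCTTCCTTTCCagcctccgcc
Rpl13a, chr7:45128726-45128755, minus strand: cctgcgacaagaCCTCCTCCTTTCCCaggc
Rpl38, chr11:114668570-114668599, plus strand: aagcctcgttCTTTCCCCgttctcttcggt
Rplp0, chr5:115559457-115559486, plus strand: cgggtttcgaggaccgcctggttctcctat
Rpl12, chr2:32961702-32961731, plus strand: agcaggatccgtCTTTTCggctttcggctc
Rps27, chr3:90213629-90213658, minus strand: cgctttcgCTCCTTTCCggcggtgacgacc
Rps27l, chr9:66946076-66946105, plus strand: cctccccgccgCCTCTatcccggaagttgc
Rps24, chr14:24490668-24490697, plus strand: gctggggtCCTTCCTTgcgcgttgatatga

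Ribosomal protein messages took about 1 in 5 of all UMIs, 22.0% in WT and 21.3% in Vsig4 KO, and their share differed widely between cell types. The share was highest in naive-like T cells, at 33.8% (interval 33.7 to 33.8) in WT and 31.1% (31.1 to 31.2) in Vsig4 KO. B cells followed at 23.7% and 22.1%, effector T cells at 22.5% and 21.0%, and DC at 21.6% and 19.2%. The share was lowest in monocytes, at 16.8% (16.8 to 16.9) and 14.5% (14.4 to 14.6). NK cells had 19.1% and 16.7%, macrophages 18.9% and 17.5%, and pDC 18.8% and 17.5%. The order was thus led by naive-like T, B, effector T and DC in both libraries and ended with monocytes, and NK cells stood above macrophages in WT and below them in Vsig4 KO. Macrophages and pDC did not differ beyond their counting intervals in either library.

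**Figure D1:**
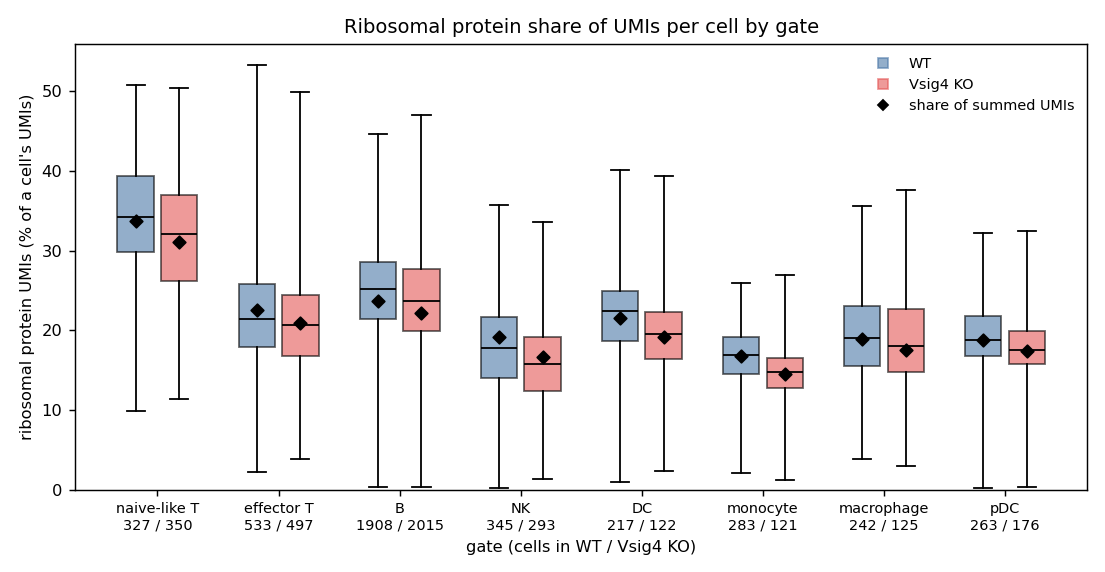
Share of a cell's UMIs that came from ribosomal protein genes (y axis, percent) in each gate (x axis, with cell numbers), WT in blue and Vsig4 KO in red. Boxes span the quartiles over cells with the median as a line, whiskers reach the lowest and highest cell, and diamonds give the share of the summed UMIs; naive-like T cells stand highest in both libraries at 33.8% and 31.1%, and the diamond of Vsig4 KO lies below that of WT in all 8 gates.

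Cells of 1 gate differed far more than counting alone gives. The 1908 WT B cells had a mean share of 24.9% with an SD over cells of 5.77 percentage points, against 0.900 points expected from counting UMIs alone. Naive-like T cells of WT had an SD of 7.75 points against 0.870. Monocytes had the smallest spread of the 7 gates in WT, with an SD of 3.66 points against 0.499. The ribosome's 2 subunits kept nearly the same proportion throughout: small-subunit genes held between 43.4% (NK, WT) and 47.2% (naive-like T, Vsig4 KO) of the ribosomal protein UMIs. The 10 members with the most UMIs made up from 21.8% (DC, Vsig4 KO) to 25.5% (B, WT) of ribosomal protein UMIs, so no few genes carried the share.

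Naive-like T cells held about 1.5 times the share of effector T cells within each library. The ratio of the shares was 1.5 (1.49 to 1.5) in WT and 1.48 (1.48 to 1.49) in Vsig4 KO. Median depth was close in the 2 gates, at 3199 and 3310 UMIs in WT and 3752.5 and 3747 UMIs in Vsig4 KO. Few cells crossed over: 4.32% of effector T cells in WT and 4.23% in Vsig4 KO had a share above the median of naive-like T cells. The same order held in cells with Cd4 UMIs, at 31.2% against 21.1% in WT and 29.7% against 19.6% in Vsig4 KO. In cells with Cd8a or Cd8b1 UMIs it was 36.0% against 24.3% in WT and 33.4% against 21.8% in Vsig4 KO. Naive-like CD8 T cells thus had a higher share than naive-like CD4 T cells in both libraries.

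Nearly every member took part in the difference between naive-like and effector T cells. Of 79 members with at least 100 UMIs, 72 were past 1.2-fold higher in naive-like T cells in WT, where 22.0% of all 4588 genes tested were. In Vsig4 KO 71 of 79 were, against 24.5% of 4850 genes. On the log2 scale the median member differed by 0.54 in both libraries, while the median of all genes tested was -0.21 in WT and -0.17 in Vsig4 KO. Only Rps27l was past 1.2-fold lower in naive-like T cells, in both libraries, where 46.6% and 44.0% of all genes were.

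Small-subunit proteins led the members that exceeded the others in naive-like T cells. Rps20 was at 8678 CPM in naive-like and 4189 CPM in effector T cells of WT, a ratio of 2.07 (2.01 to 2.13), and at 7339.8 and 3482 CPM in Vsig4 KO, a ratio of 2.11 (2.05 to 2.17). Rps19, a protein mutated in the inherited anaemia of Diamond and Blackfan, had ratios of 2.06 (1.99 to 2.13) and 2.05 (1.98 to 2.12). Ratios of Rps29 were 1.97 and 1.99. Rpl12, a protein near the stalk that binds elongation factors, had 1.89 and 1.95, Rps28 had 1.84 and 1.81, and Rpl35a had 1.76 and 1.76. These 6 were picked as the highest relative to the median member, averaged over the libraries.

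At the other end, some members hardly differed between the 2 kinds of T cell. Rpl27 was at 2541 CPM in both gates of WT, a ratio of 1.0 (0.955 to 1.05), and its ratio in Vsig4 KO was 1.04 (0.990 to 1.08). Rpl7a had ratios of 1.03 (0.964 to 1.1) and 1.09 (1.03 to 1.16). Rpl38, a protein known for its part in the translation of Hox messages in the mouse embryo, had 1.2 and 1.12, Rpl41 had 1.16 and 1.17, and Rps12 had 1.17 and 1.17. Rps27l ran the other way, at 62.5 CPM in naive-like and 147 CPM in effector T cells of WT (ratio 0.426, 0.323 to 0.554) and at 53.7 and 114 CPM in Vsig4 KO (0.471, 0.359 to 0.613).

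**Figure D2:**
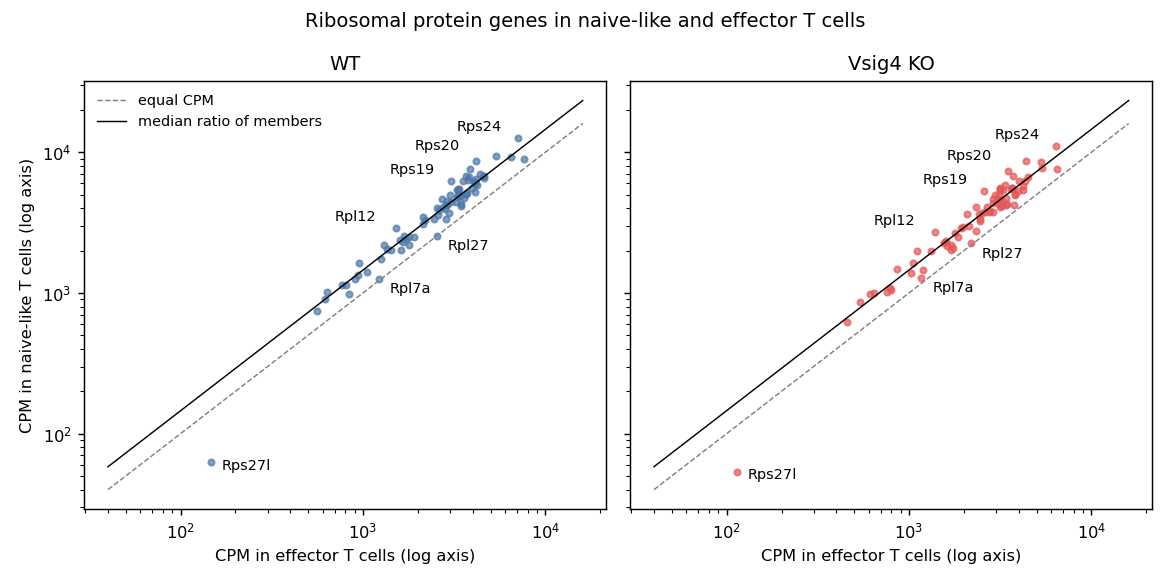
CPM of each of the 79 measured members in naive-like T cells (y axis) against effector T cells (x axis), both on log axes, for WT (left) and Vsig4 KO (right). The dashed line marks equal CPM and the solid line the median ratio of the members; Rps20, Rps19 and Rpl12 lie above the solid line, Rpl27 and Rpl7a lie near the dashed line, and Rps27l at 62.5 CPM and 53.7 CPM is the member well below it.

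Members rose and fell together over cell types, with a few exceptions. Over 14 profiles (7 gates in each of 2 libraries, which share library and scaling), the CPM of a member correlated with the median of the other members at a median Pearson r of 0.907 over 79 members, and 17 members were below 0.8. Rps27l stood apart most, at -0.60, and Rpl10 and Rpl7a were at -0.032 and 0.0099. The range of a member over gates, taken on the log2 scale relative to the median member and averaged over the libraries, had a median of 0.45, and 73 of 80 members stayed under 1.

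Rps27l had the widest range, 3.62 on the log2 scale. It is a paralog of Rps27 known as a target of p53. In WT it was at 62.5 CPM in naive-like T, 147 in effector T, 81.6 in B, 105 in NK, 349 in DC, 279.8 in monocytes, 421 in macrophages and 214 in pDC. In Vsig4 KO the values were 53.7, 114, 89.6, 97.5, 343, 254, 397 and 202 CPM in the same order. Its levels in the myeloid gates (DC, monocyte, macrophage) and in pDC did not overlap those in the lymphoid gates. Rps27, the main copy, had a nearly opposite pattern, at 9405 CPM in naive-like T, 7553 in B, 2929 in monocytes and 2713 in macrophages of WT, and its range was 1.33. The files list Rps27rt, a copy whose coding sequence is identical to that of Rps27, so reads of the pair may be split between them.

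Rpl12, Rpl10, Rpl7a, Rps19 and Rpl7l1 were further members of wide range. Rpl12 was at 2875 CPM in naive-like T cells and 558 in monocytes of WT, and at 2707 and 521 in Vsig4 KO, a range of 1.32 beyond that of the median member. Rpl10, which joins the large subunit late in its assembly and is X-linked, was highest in DC, at 3044 CPM in WT and 2548 in Vsig4 KO among the 7 gates, and lowest in effector T cells, at 1789 and 1619. In pDC Rpl10 was higher still, at 3353 and 2990.2 CPM. Rpl7a was at 1574 CPM in macrophages and 1048 in NK cells of WT. Rps19 was lowest in NK cells, at 1903 and 1538 CPM, against 4622 and 3902 in B cells. Rpl31 had its highest level in pDC, at 2268 CPM in WT and 1970.2 in Vsig4 KO, while the 7 other gates lay between 507 and 1008 CPM in WT and between 445 and 868 CPM in Vsig4 KO. Rpl31 was singled out after its values were seen.

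**Figure D3:**
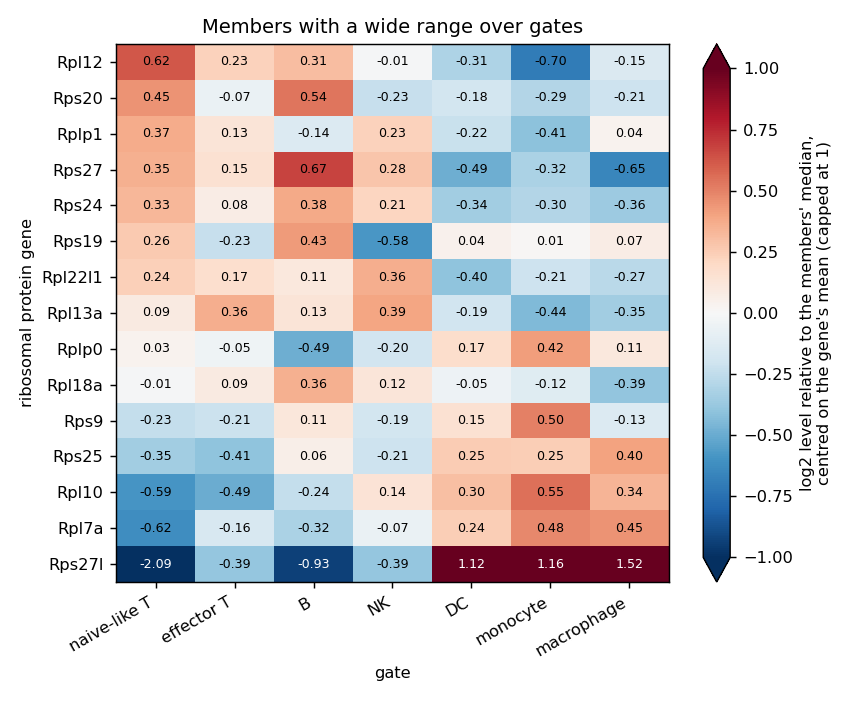
Level of 15 members (y axis) in each of the 7 gates (x axis) on the log2 scale, taken relative to the median member, centred on the gene's mean over gates and averaged over the libraries; the 15 are among the 16 with the widest range of those measured in all 7 gates. Red is above and blue below the gene's mean, and colours are capped at 1; Rps27l runs from -2.09 in naive-like T cells to 1.52 in macrophages, and Rpl12 runs the other way, from 0.62 in naive-like T cells to -0.70 in monocytes.

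Members that are paralogs of another ranged widely in level in these leukocytes. Rpl10l, a testis copy of Rpl10, had 0 UMIs in both libraries. Rpl39l, a testis paralog of Rpl39, had 11 UMIs in each library, and Rpl3l, which replaces Rpl3 in striated muscle, had 54 UMIs in WT and 20 in Vsig4 KO. In monocytes Rpl3l was at 7.17 CPM in WT and 3.97 in Vsig4 KO (ratio 0.553, 0.132 to 1.76). Rpl7l1, related to Rpl7, ranged from 28.6 to 50.3 CPM over the 7 gates in WT, and was measured in 4 gates. Rps27l, described above, and Rpl22l1, a paralog of Rpl22, were higher. Rpl22l1 was at 899 CPM in naive-like T cells of WT and 989 in Vsig4 KO, and at 345 and 323 CPM in monocytes. Rpl10l, Rpl39l, Rpl3l and Rpl7l1 leave 79 of 83 members measured in all 7 gates, where measured means at least 100 UMIs in both libraries together.

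The share of ribosomal protein UMIs was lower in Vsig4 KO in 7 of 7 gates and in pDC. The ratio was 0.861 (0.856 to 0.867) in monocytes, 0.872 (0.866 to 0.877) in NK cells and 0.889 (0.885 to 0.893) in DC. It was 0.922 (0.918 to 0.926) in naive-like T cells, 0.930 (0.924 to 0.935) in macrophages, 0.931 (0.927 to 0.935) in effector T cells and 0.933 (0.931 to 0.935) in B cells, and 0.926 (0.921 to 0.931) in pDC. Vsig4 KO minus WT ran from -1.33 percentage points in macrophages to -2.62 points in naive-like T cells, smaller than the SD over cells of every gate. Both subunits were lower, by ratios of 0.870 to 0.942 for small-subunit and 0.855 to 0.926 for large-subunit genes over the 7 gates.

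Depth differed between the libraries alongside the share. The ratio of median UMIs per cell ran from 0.992 in macrophages to 1.27 in monocytes and was above 1 in 6 of 7 gates. The median number of ribosomal protein UMIs per cell was higher in Vsig4 KO in 5 of 7 gates (ratios 0.875 to 1.1), and that of all other UMIs was higher in 7 of 7 (1.0 to 1.29). NK cells and macrophages were the gates with fewer ribosomal protein UMIs per cell in Vsig4 KO. These are raw counts that rise with depth, so they do not give the change in either kind of RNA. The mitochondrial share was lower in Vsig4 KO in every gate, for example at 1.64% in WT and 1.35% in Vsig4 KO B cells. In the NK gate of WT, 5 haemoglobin and erythroid genes summed to 2853 CPM, against 0.937 CPM in Vsig4 KO. With haemoglobin, mitochondrial and receptor genes left out of the denominator the NK ratio was 0.867. Melanoma markers summed to 11.7 CPM in WT and 51.6 CPM in Vsig4 KO macrophages, with 5 and 6 of 6 markers detected. The part of depth and of these RNAs in the lower share was not tested.

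Within the same ranges of depth the share was mostly lower in Vsig4 KO. Among 21 pairs of gate and depth range with at least 20 cells in both libraries, 19 were lower, with ratios from 0.774 to 1.14. Depth was not matched inside a range: median UMIs per cell, as a ratio, ran from 0.874 to 1.12 and were higher in Vsig4 KO in 14 of the 21. The 2 exceptions were effector T cells with 500 to under 2000 UMIs, at 19.6% in WT and 20.4% in Vsig4 KO (ratio 1.04), and macrophages with 2000 to under 4000 UMIs, at 19.2% and 22.0% (1.14, from 41 and 34 cells). NK cells with fewer than 2000 UMIs were at 14.8% in both. B cells gave 0.962, 0.960, 0.948 and 0.866 from the shallowest to the deepest range.

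**Figure D4:**
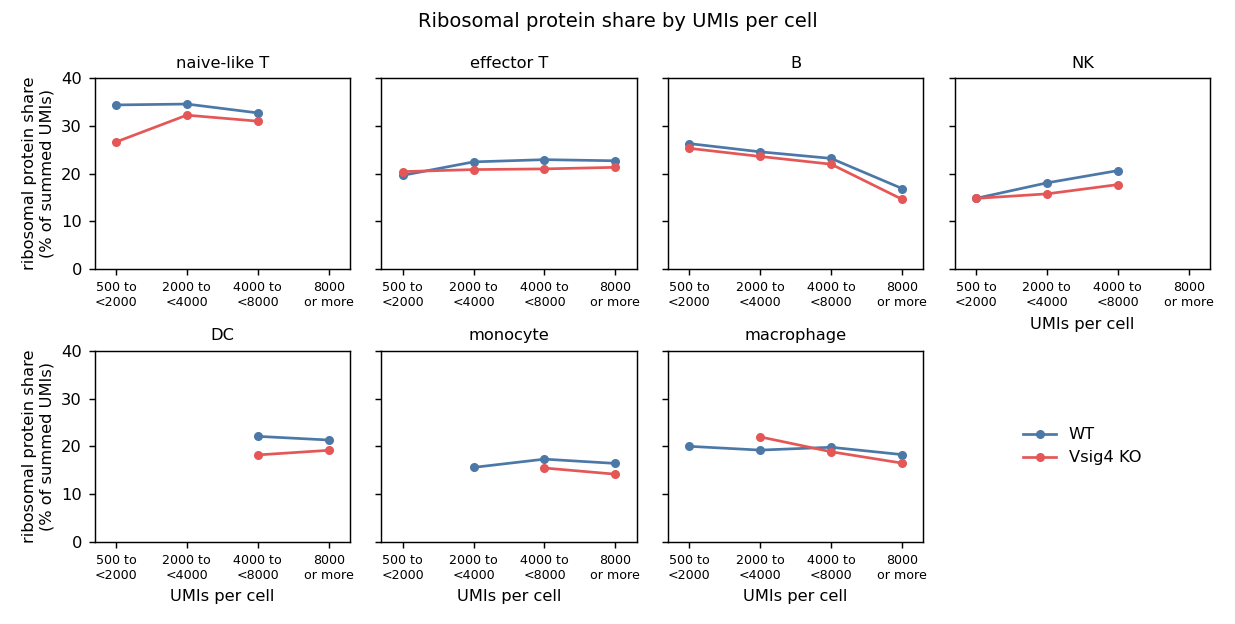
Share of summed UMIs from ribosomal protein genes (y axis, percent) by range of UMIs per cell (x axis) in each gate, WT in blue and Vsig4 KO in red; a point needs 20 cells. Vsig4 KO lies below WT in 19 of the 21 ranges that have both points, and above it in shallow effector T cells and in macrophages with 2000 to under 4000 UMIs.

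Most members moved with the share, by small amounts. Among the 79 members measured in all 7 gates, 57 had a ratio below 1 in every gate, 4 above 1 in every gate (Rps10, Rpl13a, Rps29 and Rpl6) and 18 on both sides. The same count over all genes is not given. Without that background, and with gates that share both libraries, these numbers do not set the members apart from other genes. The median log2 ratio of the members was -0.14 in naive-like T, -0.13 in effector T, -0.14 in B, -0.22 in NK, -0.18 in DC, -0.22 in monocytes and -0.13 in macrophages. The median of all genes tested lay between -0.026 and 0.041 in the same gates.

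Few members passed 1.2-fold outside NK cells, monocytes and DC. Members past 1.2-fold lower numbered 26 of 79 in NK cells (32.9%), where 17.3% of all genes tested were, and 25 of 79 in monocytes (31.6%), where 17.4% were. In the other gates the members' share was near or under that of all genes: 13 of 80 in DC against 14.8% of all genes, 6 of 80 in effector T cells against 17.7%, 5 of 79 in naive-like T cells against 16.1%, 3 of 80 in B cells against 12.7% and 2 of 80 in macrophages against 19.2%. In pDC 4 of 80 were, against 15.8%. These shares are of genes with at least 100 UMIs, and they depend on that minimum. With at least 500 UMIs, DC members stood above all genes, at 13 of 79 (16.5%) against 9.26%. NK cells then had 33.3% of members against 12.6% of all genes, and monocytes 31.6% against 12.7%. In the other gates the members' share stayed under that of all genes.
Members past 1.2-fold higher numbered 2 or 3 in each gate. They were 3 of 79 in naive-like T cells (19.5% of all genes), 2 of 80 in effector T cells (15.4%), 2 of 80 in B cells (12.7%), 2 of 79 in NK cells (18.7%), 3 of 80 in DC (20.8%), 2 of 79 in monocytes (19.8%), 2 of 80 in macrophages (15.7%) and 2 of 80 in pDC (17.5%). Rps10 and Rpl13a were those 2 members in each of the 8 gates, and the third was Rplp0 in naive-like T cells and Rpl7l1 in DC. Over the 7 main gates this made 16 pairs of member and gate higher and 80 lower. Scaled to ribosomal protein UMIs in place of all UMIs the pairs were 26 higher and 0 lower, a scaling that moved the median of all genes up by 0.10 to 0.22 on the log2 scale. Scaled to all UMIs other than ribosomal protein UMIs they were 13 higher and 152 lower.

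**Figure D5:**
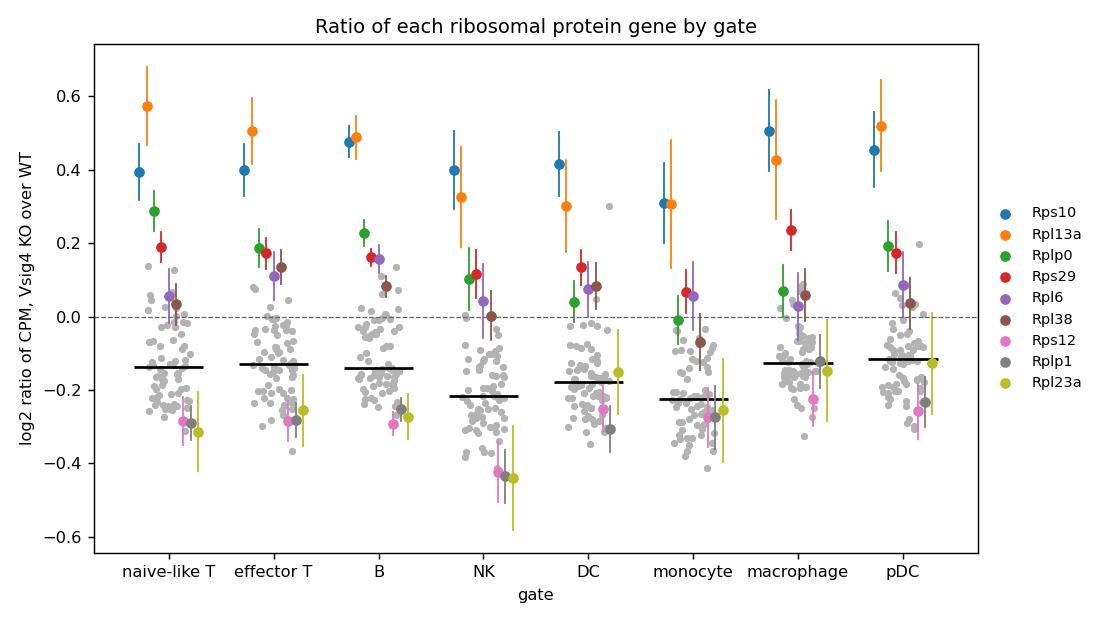
Log2 ratio of CPM, Vsig4 KO over WT (y axis), for each measured member in each gate (x axis); black bars mark the median member, grey points the other members, and coloured points named members with 95% counting intervals. Rps10 and Rpl13a are the 2 highest members in each of the 8 gates, with Rpl7l1 beside Rpl13a in DC, while Rps12 and Rplp1 lie below the median member in the T, B and NK gates.

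Rps10, a protein of the small subunit, was higher in Vsig4 KO in all 8 gates while the median member was lower. In WT it was at 2037 CPM in naive-like T, 1353 in effector T, 1309 in B, 1125 in NK, 1132 in DC, 903 in monocytes, 926 in macrophages and 911 in pDC. In Vsig4 KO it was at 2675, 1783, 1821, 1484, 1509, 1118, 1316 and 1247 CPM in the same order. The ratio was lowest in monocytes at 1.24 (1.15 to 1.34) and highest in macrophages at 1.42 (1.32 to 1.53), with a median over the 7 gates of 1.32. The same held in each part of the T cells, with ratios of 1.29 in naive-like CD4, 1.40 in naive-like CD8, 1.37 in effector CD4 and 1.29 in effector CD8 T cells.

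Rpl13a, a large-subunit protein also known for silencing inflammatory messages in macrophages, did likewise. In WT it was at 985 CPM in naive-like T, 835 in effector T, 691 in B, 709 in NK, 577 in DC, 361 in monocytes, 441 in macrophages and 607 in pDC. In Vsig4 KO it was at 1465, 1186, 969, 888, 711, 447, 593 and 870.3 CPM in that order. Its ratio ran from 1.23 (1.13 to 1.34) in DC to 1.49 (1.38 to 1.60) in naive-like T cells, with a median of 1.34. In naive-like CD8 T cells it reached 1.55 (1.35 to 1.77). Every interval of Rps10 and Rpl13a lay above 1.

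Rps10 and Rpl13a share a feature of the annotation. Rps10 (mm10 chr17:27630418-27636669, minus strand) has 20.6% of its exonic bases under exons of Gm49804 on the same strand, and Rpl13a (chr7:45125558-45128761, minus strand) has 29.4% under exons of Gm45713. They were the only 2 of the 83 members whose exons overlapped exons of another gene of the files on the same strand. Gm49804 itself had 0 UMIs in WT and 3 in Vsig4 KO B cells, and Gm45713 had 1 and 0. Over all genes tested in B cells, those with at least 20% of their exonic bases overlapped on the same strand were past 1.2-fold higher in 38 of 112 cases (33.9%), against 12.4% of the 8149 other genes. Past 1.2-fold lower were 15.2% of the overlapped and 12.6% of the other genes. The labels do not say how reads shared by overlapping genes were counted. The submitters' processing notes name the same Cell Ranger version and build for both libraries, and do not say whether the settings were the same. The part of the overlap in the 2 ratios was not tested. Among neighbours within 500000 bases in B cells, none of 9 measured genes near Rps10 was past 1.2-fold higher, and 5 of 31 near Rpl13a were.

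The symbol rule leaves out Fau, which encodes a ubiquitin-like protein fused to the small-subunit protein eS30. It was in the list of other TOP or translation genes and was singled out after its values were seen. Fau, with 0% of its exonic bases under exons of another gene on the same strand, was at 8106 and 7237 CPM in B cells of WT and Vsig4 KO. Its ratio ran from 0.794 in monocytes to 0.918 in effector T cells.

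Next in order came members with smaller differences. Rps29 had a median ratio of 1.12, from 1.05 (1.01 to 1.09) in monocytes to 1.18 (1.13 to 1.22) in macrophages, and was at 7636 CPM in WT and 8711 in Vsig4 KO naive-like T cells. Rplp0, the base of the P-stalk that recruits elongation factors to the large subunit, ran from 0.993 (0.949 to 1.04) in monocytes to 1.22 (1.18 to 1.27) in naive-like T cells, where it was at 4095 and 4998 CPM. Its partners in the stalk went the other way: Rplp1 had a median ratio of 0.823 (0.740 to 0.919 over gates) and Rplp2 of 0.845 (0.80 to 0.883). Rpl6 had a median of 1.04, with intervals that held 1 in naive-like T cells, NK cells, monocytes and macrophages. Rpl38 ran from 0.954 to 1.1. Rpsa, known also as a laminin receptor, ran from 0.942 to 1.04 and Rpl21 from 0.917 to 1.06, both on either side of 1.

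The lowest ratios belonged to members of both subunits. Rps12 was at 3334 CPM in WT and 2738 in Vsig4 KO naive-like T cells, 2842 and 2335 in effector T, 2856 and 2334 in B, 2540.2 and 1894 in NK, 2917 and 2452 in DC, 2114 and 1749 in monocytes, and 2741 and 2346 in macrophages. Its median ratio was 0.821, with the lowest value of 0.746 (0.704 to 0.789) in NK cells, and Vsig4 KO was lower in each gate. Median ratios were 0.824 for Rpl37a, 0.830 for Rps15, 0.831 for Rps20, 0.838 for Rpl23a and 0.847 for Rps9. The 8 lowest members, which include Rplp1 and Rplp2, were picked by their deviation over these same gates. The ratio of each was below 1 in 7 of 7 gates, which held for 57 of the 79 members. In NK cells the lowest ratio among these was 0.738 (0.669 to 0.813), for Rpl23a.

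Ratios tended to be higher in members with a longer coding sequence, with exceptions. The 26 members with the shortest coding sequence (138 to 399 bases) had a median ratio of 0.872, the next 26 (405 to 576 bases) 0.893, and the 27 longest (582 to 1257 bases) 0.948. Across the 79 members Spearman's rho of the coding length with the member's deviation from the median member was 0.40, a description across genes that share both libraries. Pearson's r was 0.31, and for transcript length rho was 0.27 and r was 0.081. Rps29 and Rpl38, with coding sequences of 168 and 210 bases, had median ratios of 1.12 and 1.04. Within gates, rho lay between 0.26 and 0.45 for members over the 7 gates, and between -0.10 and 0.069 for the other genes with at least 100 UMIs. With at least 500 UMIs it reached 0.26 for the other genes in DC and macrophages and 0.22 in monocytes. GC content and the number of annotated copies had rho of -0.0062 and 0.14 with the deviation. The deviation between the libraries was unrelated to that between naive-like and effector T cells (rho -0.016).

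The X-linked members Rpl10, Rpl36a, Rpl39 and Rps4x lay within the range of the rest. Their median ratios were 0.864, 0.907, 0.888 and 0.948, and each was below 1 in 7 of 7 gates. Rpl39, which lines the exit tunnel of the large subunit, was at 6521 CPM in WT and 5793 in Vsig4 KO naive-like T cells and at 2897 and 2435 in monocytes. Rps4x was at 5417 and 5354 CPM in naive-like T cells. Rpl36a was at 1119.6 CPM in WT and 859 CPM in Vsig4 KO NK cells, its lowest ratio at 0.768 (0.705 to 0.836).

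Ribosomal protein genes have many near-identical copies in the genome, which limits single members. Of the 83 members, 71 had at least 1 other annotated copy with 90% identity over 90% of the coding sequence in GENCODE M21, with a median of 7 copies and a highest number of 75 for Rpl21. A gene lying over the member's own exons was counted too, such as Gm49804, the only copy of Rps10, and Gm45713 for Rpl13a. For 13 members, Rps10 and Rpl13a among them, a copy was itself listed in the files. Among these copies, Rps27rt had a ratio in B cells of 0.583 (0.460 to 0.738), Gm2000, a copy of Rpl35, had 0.538 (0.374 to 0.767), and BC004004, a copy of Rpl21, had 1.18 (1.02 to 1.38). Their levels were low, at 32.2, 15.1 and 55.9 CPM in WT B cells, beside 7553 CPM for Rps27.

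Other translation genes were followed from lists to place the members. Of 21 other genes with TOP tracts or roles in translation, 20 were in the files and measured in each of the 7 gates. Their summed share was 3.17% in WT and 3.22% in Vsig4 KO naive-like T cells, and the ratio of the sums ran from 0.922 (0.907 to 0.938) in monocytes to 1.03 (1.02 to 1.04) in effector T cells. Between 2 and 4 of 20 were past 1.2-fold higher and between 0 and 4 lower in a gate, beside the backgrounds given above. Elongation factors of this list went both ways. Eef2 had ratios of 1.12 to 1.27 and Eef1a1 of 1.04 to 1.22, above 1 in 7 of 7 gates. Eef1b2 (0.820 to 0.958) and Eef1d (0.839 to 0.978) were above 1 in 0 of 7, and Eef1g (0.820 to 1.03) in 1 of 7. Rack1, a scaffold on the small subunit, ran from 0.812 to 0.942, and Tpt1, a growth-related TOP gene, from 0.860 to 0.968. In naive-like against effector T cells 9 of 20 were past 1.2-fold higher and 1 lower in each library. Of all genes tested, 22.0% in WT and 24.5% in Vsig4 KO were higher, and 46.6% and 44.0% lower.

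Genes of the mitochondrial ribosome had the reverse order in the 2 kinds of T cell. Of the 78 mitochondrial ribosomal protein genes, 46 in WT and 50 in Vsig4 KO were measured, and 32 in each library were past 1.2-fold lower in naive-like than in effector T cells, with 2 higher, where 46.6% and 44.0% of all genes were lower. Their summed share was 0.321% in naive-like and 0.434% in effector T cells of WT and 0.293% and 0.394% in Vsig4 KO. Between the libraries their summed share was lower in Vsig4 KO in all 7 gates, with ratios from 0.894 (0.862 to 0.928) in monocytes to 0.959 (0.940 to 0.979) in B cells. Past 1.2-fold were 3 higher and 13 lower of 30 in naive-like T cells (19.5% and 16.1% of all genes), 5 and 13 of 59 in effector T cells (15.4% and 17.7%), and 9 and 6 of 76 in B cells (12.7% and 12.7%). They were 2 and 11 of 29 in NK cells (18.7% and 17.3%), 4 and 15 of 54 in DC (20.8% and 14.8%), 1 and 11 of 39 in monocytes (19.8% and 17.4%), and 2 and 7 of 41 in macrophages (15.7% and 19.2%).

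Genes of ribosome biogenesis and of growth signalling had no common direction over the gates. The 34 biogenesis genes, which include the nucleolar proteins Ncl and Fbl, had a ratio of summed shares of 1.1 (1.08 to 1.13) in B cells and 1.12 (1.06 to 1.17) in DC, and of 0.937 (0.878 to 0.999) in monocytes. In B cells 6 of 34 were past 1.2-fold higher and 0 lower (12.7% and 12.7% of all genes), in DC 7 of 21 and 0 (20.8% and 14.8%), and in monocytes 2 of 18 and 8 (19.8% and 17.4%). Higher and lower were 3 and 3 of 15 in naive-like T cells (19.5% and 16.1%) and 2 and 2 of 19 in effector T cells (15.4% and 17.7%). They were 2 and 1 of 10 in NK cells (18.7% and 17.3%) and 4 and 2 of 17 in macrophages (15.7% and 19.2%). The 18 genes of growth signalling to ribosomal protein messages, such as Mtor, Larp1 and Eif4ebp1, had a ratio of 1.2 (1.13 to 1.28) in DC, 0.923 (0.862 to 0.988) in naive-like T cells, 0.95 (0.880 to 1.03) in monocytes and between 0.995 and 1.07 in the other 4 gates. Past 1.2-fold higher and lower were 1 and 3 of 11 in naive-like T, 4 and 1 of 13 in effector T and 2 and 1 of 17 in B cells. They were 3 and 3 of 11 in NK cells, 3 and 1 of 12 in DC, 0 and 4 of 10 in monocytes and 2 and 0 of 10 in macrophages. Over these gates 12.7% to 20.8% of all genes were higher and 12.7% to 19.2% lower. The 11 genes of dissociation stress, the early response to tissue digestion, moved between the libraries too. Their ratio was 0.761 in B cells, 0.849 in monocytes, 0.945 in DC and 0.963 in macrophages. It was 1.04 in naive-like T, 1.1 in effector T and 1.22 in NK cells. A link between these ratios and the ribosomal protein share was not tested.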

How the data were processed

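The deposited matrices hold UMI counts, whole numbers per gene and barcode. The authors used Cell Ranger 7.1.0 with mm10, per the submitters' processing notes. Totals were 28537154 (WT) and 25119175 (Vsig4 KO) UMIs. The filter on barcodes asked for 200 genes and 500 UMIs or more, with a mitochondrial share up to 10%. Cells were gated on raw UMIs of fixed markers and a cell passing several gates was left out (6 and 1). A gate needed 50 cells in each library. Doublets were otherwise kept, and their removal by scrublet score was an alternative. Counts were summed per library and gate and scaled to CPM. A gene was measured at 100 UMIs or more in both libraries together. Intervals are exact Clopper-Pearson (shares) and conditional binomial (ratios) at 95%, from scipy 1.17.1. The ratio intervals were tested on simulated counts that varied by counting alone. That test does not bear on variation between cells or libraries. Named members were the 8 highest and 8 lowest in deviation from the median member between the libraries, the 6 and 6 between naive-like and effector T cells, the 8 of widest range over gates, paralogous copies, X-linked members and members at 0 UMIs. Some genes that these rules name are not reported here. Members and lists were chosen with earlier results of these data known. Positions and copies came from GENCODE M21.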

Additional observations from a re-analysis of the deposited data

How the results depend on the processing

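The ratio of ribosomal protein shares was below 1 in 46 of 47 values under the alternatives. The exception was the macrophage gate with only cells of 2000 to 4000 UMIs, at 1.14 from 41 and 34 cells. That depth band gave 0.933 in naive-like T and 0.960 in B cells, and fewer than 20 cells left DC and monocytes without a value. With every positive gate threshold doubled the ratios were 0.918 in naive-like T, 0.927 in effector T, 0.936 in B, 0.888 in NK, 0.864 in DC, 0.852 in monocytes and 0.898 in macrophages. As a mean over cells they were 0.946 in effector T, 0.949 in B, 0.889 in NK, 0.870 in monocytes and 0.971 in macrophages. Without mitochondrial, receptor and haemoglobin genes in the denominator B cells gave 0.942, and without the highest scrublet scores NK cells gave 0.865. The threshold set by scrublet called 0 cells in WT and 1 in Vsig4 KO and had thus not worked, so the 381 and 267 cells of highest score were taken out. The ratio of naive-like to effector T cells was 1.52 in WT and 1.51 in Vsig4 KO with doubled thresholds, 1.54 and 1.5 as a mean over cells, 1.54 and 1.55 in the depth band, and 1.49 in Vsig4 KO without the highest scrublet scores. Pairs of member and gate past 1.2-fold numbered 16 higher and 80 lower. Scaled to ribosomal protein UMIs they were 26 and 0, and this scaling moved the median of all genes up by 0.10 to 0.22 on the log2 scale. Scaled to all other UMIs the lower pairs were 152. At 1.5-fold both numbers were 0. Of 96 alternative medians of the log2 ratio for 16 named members, 4 changed sign, those of 2 members near 0. Rpl21 went from -0.0024 to 0.12 scaled to ribosomal protein UMIs and to 0.0080 with doubled thresholds. Rpsa went from 0.025 to -0.010 scaled to all other UMIs and to -0.022 with doubled thresholds. The minimums of 20 and 500 UMIs left each of the 16 as it was, so they bear on none of them. No paired analysis was possible because each genotype had 1 library.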

Other observations

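Over all genes tested, those with exons overlapped on the same strand were more often past 1.2-fold higher in every gate. Genes with at least 20% of their exonic bases overlapped were past 1.2-fold higher in Vsig4 KO in 45.2% of 31 in naive-like T, 39.0% of 59 in effector T, 33.9% of 112 in B, 48.6% of 35 in NK, 40.9% of 44 in DC, 34.2% of 38 in monocytes and 40.5% of 37 in macrophages. For the other genes these shares lay between 12.4% (B) and 20.6% (DC). The median log2 ratio of the overlapped genes ran from 0.044 in DC to 0.23 in NK cells, and in DC it was close to the 0.041 of the other genes. Past 1.2-fold lower were 5.08% of overlapped and 17.8% of other genes in effector T cells. They were 15.2% and 12.6% in B cells and 15.9% and 14.7% in DC. In B cells and DC the overlapped genes were thus more often past 1.2-fold in both directions. The pattern was found after Rps10 and Rpl13a had been seen and was not tested.

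A gate for neutrophils held 46 WT and 34 Vsig4 KO cells, too few for the comparisons. Ribosomal protein UMIs made up 3.35% (3.23 to 3.47) of their UMIs in WT and 3.54% (3.42 to 3.67) in Vsig4 KO, below the 14.5% of the lowest of the 7 gates.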
